A study of Rattus norvegicus with 13 samples.

Results

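Cholesterol and fatty acid synthesis genes were followed in the brains of old male rats whose mothers had eaten a control or a high fructose diet. The set holds 34 genes taken from a list of symbols: regulators of the SREBP pathway, enzymes from mevalonate to squalene, enzymes from squalene to cholesterol, the sterol carrier Stard4, enzymes of fatty acid synthesis, and fatty acid elongases and desaturases. Each gene was read from the probe set whose only platform symbol was that gene, and from the one with the highest mean over the 13 arrays where there were several. Such a set combines several short probes into 1 value per transcript. With this rule 32 of the 34 genes had a value, out of 14506 genes on the array. Hmgcs1, the synthase that feeds the mevalonate pathway, had no such probe set, and the only probe set listing Srebf1 also listed Pemt, so neither is reported.

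The rats were offspring of Fischer F344 mothers, an inbred strain, and all were males aged 15 months. Mothers ate the control diet (7 arrays, replicates 1, 2, 3, 4, 5, 7 and 8) or the high fructose diet (6 arrays, replicates 1, 2, 3, 4, 7 and 8) from day 1 of gestation and through lactation. Both groups of offspring went onto the same chow at weaning on day 20, so the diets differed only before then. Each array held RNA of a brain without its cerebellum, a mixture of all cell types of the remaining brain, and the labels do not name litters or say that arrays were separate animals, so the p-values below reflect only how these samples spread, which may be technical. In such bulk tissue, fewer cells of a type and less RNA per cell cannot be told apart. Values are log2 signals, on which a difference of 1 is a doubling. Array medians lay between 7.99 and 8.07, and the distance between the quartiles of an array's values ran from 2.15 in control replicate 2, the narrowest, to 2.50 in control replicate 5, the widest. All 8 neuron markers checked had a mean signal of 10.36 or more, and their mean per array lay between 11.74 and 11.91.

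The brain makes nearly all of its own cholesterol, because lipoproteins of the blood do not cross into it, and most of that cholesterol sits in myelin. When sterols are scarce, SCAP carries the transcription factors SREBP1 and SREBP2 from the endoplasmic reticulum to the Golgi, where they are cut to their active form, and INSIG proteins hold the complex back when sterols are plentiful. SREBP2 mainly drives the sterol enzymes and SREBP1 mainly those of fatty acid synthesis. Much of the sterol synthesis of the adult brain is ascribed to glia.

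No difference between the maternal diets was detected in any of the 32 genes. In the limma fit over 15633 probe sets, 0 of the 32 passed an adjusted p of 0.05 by the Benjamini-Hochberg method, where 0.00% of all probe sets did, and the smallest adjusted p was 0.9998. At an unadjusted p under 0.05 there were also 0 of the 32, against 2.23% of all probe sets. Differences, maternal fructose minus maternal control, ran from -0.06 (Sqle) to 0.09 (Insig2) on the log2 scale, and the ranges of both groups overlapped for all 32 genes. These differences were bounded to 1.1-fold or less by their 95% intervals in 7 genes, to 1.2-fold in 31 and to 1.5-fold in all 32. The farthest bound was -0.27, that of Sqle.

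By direction, 18 of the 32 had a higher mean in the fructose group and 14 a lower one, where 54.0% of all genes did, and the median difference was 0.010 against 0.0055 over all genes. The split depended on single control arrays and on the scaling. It was 27 without control replicate 5, 12 without control replicate 2 and 9 without control replicates 1 and 2, and 13 after quantile normalization was applied again or after cyclic loess. The share of all genes higher in these settings is not given, here or for the roles below. Such shifts therefore cannot be called particular to these genes.

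**Figure D1:**
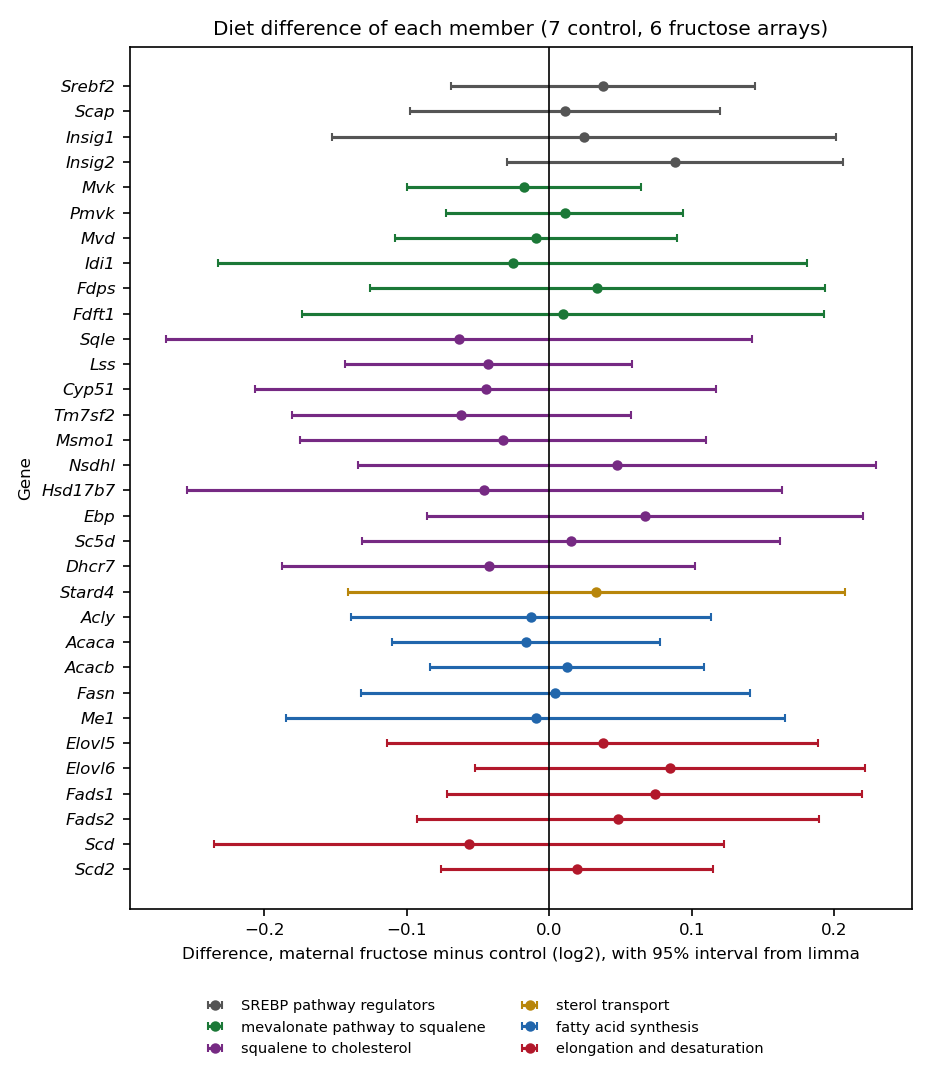
Difference of each of the 32 genes between the diets (horizontal axis, log2, maternal fructose minus maternal control, 6 against 7 arrays), with the gene on the vertical axis. Points are limma estimates, bars their 95% intervals and colours the roles, and every interval holds 0, with estimates from -0.06 to 0.09.

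Among the regulators, the 4 measured genes had differences between 0.01 and 0.09. Insig2, which retains the SCAP and SREBP complex in the endoplasmic reticulum, had a lowest, median and highest value of 8.64, 8.68 and 8.81 in control samples and 8.60, 8.81 and 8.94 in fructose samples. Its difference was 0.09 ± 0.06 (SE), with an interval from -0.03 to 0.21 and the smallest unadjusted p of the set (0.13 from limma). The fructose group held both the highest array (replicate 7) and the lowest (replicate 8), so the groups overlapped over the whole control range. Insig1, the member of the pair whose own transcription is driven by SREBP, lay at 10.12, 10.29 and 10.65 in control and 10.30, 10.33 and 10.51 in fructose samples. Its difference was 0.02 ± 0.08 (SE), and 0.08 by its dimmer probe set. All fructose arrays fell inside the control range. Srebf2, the gene of SREBP2, differed by 0.04 (interval -0.07 to 0.14) and Scap, the escort protein, by 0.01 (interval -0.10 to 0.12), which turned to -0.006 and -0.0086 after the 2 other normalizations.

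The 6 measured genes from mevalonate to squalene were split evenly, with 3 higher and 3 lower and differences from -0.03 to 0.03, but 5 were higher without control replicate 5 and 1 was without control replicate 2. Fdft1 encodes squalene synthase, the first step committed to sterols. It lay at 10.06, 10.36 and 10.77 (lowest, median and highest) in control and 10.28, 10.35 and 10.43 in fructose samples, a difference of 0.0095 ± 0.086 (SE). The medians were nearly equal and all fructose arrays lay well inside the control range, but fructose replicates 2, 4 and 7 shared the exact value 10.349. Fdps, which makes farnesyl diphosphate, lay at 9.51, 9.74 and 10.13 in control and 9.76, 9.79 and 9.90 in fructose samples. The isomerase gene Idi1 lay at 7.36, 7.68 and 8.08 in control and 7.54, 7.60 and 7.73 in fructose samples. In both genes the control samples again held both ends. The 2 kinases of the pathway, Mvk and Pmvk, and the decarboxylase Mvd varied little, with a range over the 13 arrays of 0.20, 0.21 and 0.30 against 0.72 for Idi1.

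From squalene to cholesterol the median difference was -0.04, with again none past the threshold. Of these 10 genes, 3 had a higher and 7 a lower mean in the fructose group, where 54.0% of all genes were higher. This split rested on single arrays: without control replicate 5 it was 8 higher and 2 lower, and without control replicate 2 it was 1 and 9. Sqle, the squalene epoxidase and a rate-limiting step of the pathway, lay at 8.80, 9.15 and 9.53 in control and 8.93, 9.06 and 9.28 in fructose samples. Its difference was -0.06 ± 0.10 (SE), the lowest of the set, but 0.0025 without control replicate 5, so its sign rested on 1 array. Hsd17b7, a sterol ketoreductase, had the widest range over the arrays, 0.82 or 1.77-fold, from 8.002 in control replicate 2 to 8.83 in control replicate 5. Its fructose arrays ran from 8.19 to 8.49, and its difference of -0.05 also turned, to 0.03, without control replicate 5.

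Fructose arrays lay inside the control range in further enzymes. Cyp51, the lanosterol demethylase, lay at 10.30, 10.50 and 10.84 in control and 10.37, 10.43 and 10.59 in fructose samples. Dhcr7, the reductase of the last step in one branch, lay at 8.17, 8.42 and 8.74 in control and 8.32, 8.39 and 8.43 in fructose samples. In both, the difference was -0.04, turning to 0.02 and 0.01 without control replicate 5. Lss, the lanosterol synthase, was the tightest sterol gene among fructose arrays, at 8.83 to 8.89, against 8.75 to 9.03 in control samples, and 4 of the 6 fructose arrays shared the exact value 8.8856. All 6 fructose arrays of Lss lay below the control mean of 8.92, as did those of Tm7sf2, a sterol reductase, below 7.80, yet their intervals (-0.14 to 0.06 and -0.18 to 0.06) held 0. The demethylating enzymes Msmo1 and Nsdhl differed by -0.03 and 0.05, the isomerase Ebp by 0.07 and the desaturase Sc5d by 0.01. Stard4, which moves cholesterol between membranes, lay at 7.75, 7.93 and 8.09 in control and 7.61, 7.99 and 8.08 in fructose samples, with fructose replicate 4 the lowest of all arrays.

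Fatty acid synthesis gave the smallest differences, from -0.02 to 0.01 over 5 genes. Fasn, the synthase that builds palmitate, had the same median of 9.94 in both groups, with control samples from 9.63 to 10.14 and fructose samples from 9.91 to 9.96. The exact value 9.9444 was shared by control replicate 3 and fructose replicates 1 and 4. All 6 fructose arrays therefore fell within 0.05 of each other while the control arrays spread over 0.51. Acly, which supplies cytosolic acetyl-CoA, differed by -0.01, the carboxylase Acaca by -0.02 and its mitochondrial counterpart Acacb by 0.01. Me1, a malic enzyme that supplies NADPH, lay at 9.48, 9.80 and 10.01 in control and 9.67, 9.76 and 10.07 in fructose samples, with fructose replicate 3 highest.

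Of the elongases and desaturases, 5 of 6 were higher in the fructose group, where 54.0% of all genes were, but only 2 of 6 without control replicates 1 and 2. Their median difference was 0.04, with none past the threshold. Elovl6, which lengthens saturated fatty acids, lay at 10.06, 10.19 and 10.42 in control and 10.22, 10.32 and 10.45 in fructose samples, a difference of 0.09 ± 0.06 (SE) with an interval from -0.05 to 0.22. Fads1, a desaturase of polyunsaturated fatty acids, lay at 10.91, 11.12 and 11.27 in control and 11.00, 11.18 and 11.28 in fructose samples, a difference of 0.07 ± 0.07 (SE). In both genes 1 fructose array exceeded all control arrays, and the rest overlapped them. Fads2, its partner upstream, and Elovl5 differed by 0.05 and 0.04. Scd2, the main stearoyl-CoA desaturase of brain, varied by only 0.20 over the 13 arrays and differed by 0.02, while Scd varied by 0.63 and differed by -0.06, and by 0.0037 without control replicate 5.

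**Figure D2:**
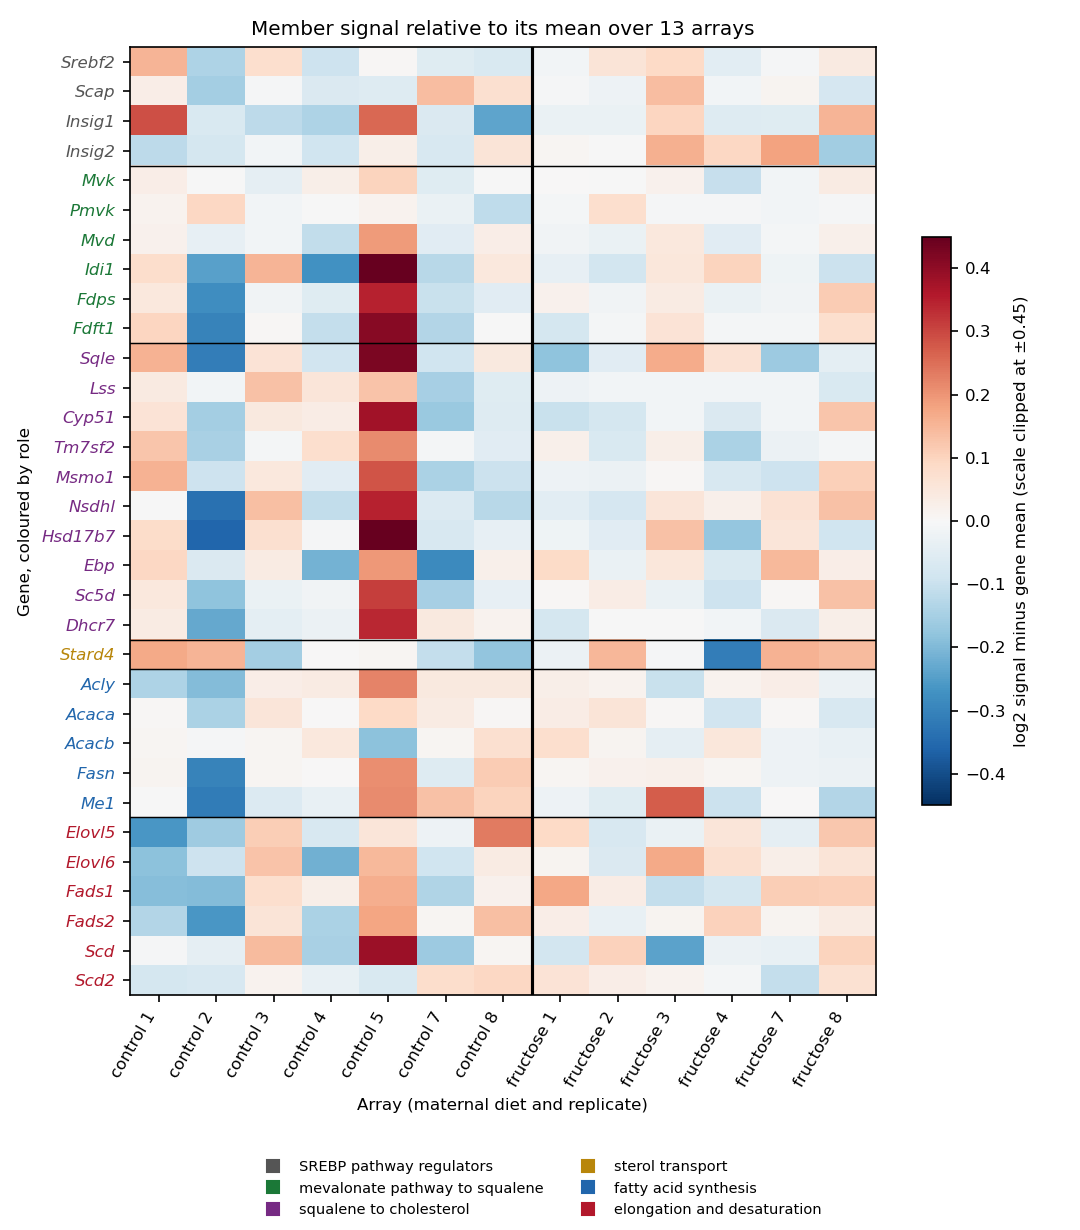
Log2 signal of each of the 32 genes (rows, coloured by role) in each array (columns, 7 control and 6 fructose) minus the mean of the gene over the 13 arrays, with the colour scale limited to 0.45 in either direction. Control replicate 5 is the darkest red column over the sterol enzymes and control replicate 2 the darkest blue, while the fructose columns are mostly pale.

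The highest and lowest values of these genes came mostly from 2 control arrays. Control replicate 5 had the highest value of the 13 arrays in 19 of the 32 genes, and in 14 of the 16 measured sterol enzymes, where it was highest in 15.0% of all genes. Control replicate 2 had the lowest value in 16 of the 32 and in 8 of the 16 sterol enzymes, against 18.8% of all genes. The 16 sterol enzymes averaged 9.37 on control replicate 5 and 8.92 on control replicate 2, from 8.98 to 9.15 in the other control arrays and from 9.04 to 9.12 in the fructose arrays. The group means of this average were 9.09 ± 0.15 (SD, n = 7) for control and 9.08 ± 0.03 (SD, n = 6) for fructose arrays. The fatty acid genes had the same array at the top. The mean of the 5 synthesis genes ran from 8.99 in control replicate 2 to 9.29 in control replicate 5, and the mean of the 6 elongases and desaturases from 10.37 in control replicate 1 to 10.66 in control replicate 5.

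Cell type marker means placed these arrays near an end of the 13 in some lists and not in others. Ranked from the highest, control replicate 5 was 4 for neuron, 5 for microglia, 11 for meninges and 12 for choroid plexus markers. Control replicate 2 was 11 for neuron, 12 for microglia, and 4 for both oligodendrocyte and choroid plexus markers. Control replicate 5 had the lowest mean of the 13 measured oligodendrocyte markers, 9.44, but control replicates 4 and 7 were near it at 9.46 and 9.51, and its astrocyte marker mean of 10.86 was exceeded by 2 arrays. It stood apart in Trh, the gene of thyrotropin releasing hormone, with a signal of 9.69 against 6.83 to 7.49 in the other arrays. Trh belongs to none of the gene lists used here, and how many other genes stood apart on this array was not counted. Control replicate 2 had the lowest astrocyte marker mean (10.50, over 9 measured genes, with 10.51 in control replicate 1) and the lowest mean of 6 markers of the meninges (7.27, with 7.38 in control replicates 1 and 5 and up to 8.77 elsewhere). Control replicate 5 also had the widest and control replicate 2 the narrowest distribution of values, and the part of these measures in the sterol enzyme values was not tested.

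**Figure D3:**
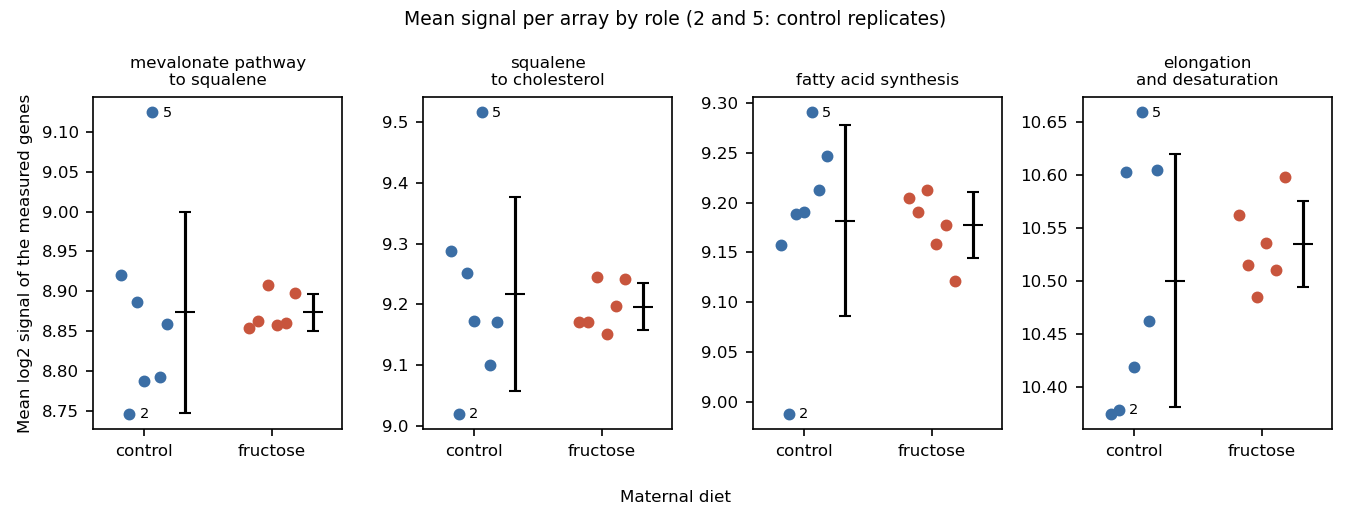
Mean log2 signal of the measured genes of 4 roles (vertical axes, which do not start at 0) in each control (blue) and fructose (red) array, with the group mean ± SD as a black line beside the points. Control replicates 5 and 2, marked by number, bound the first 3 panels, and the fructose arrays lie between them.

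Values were more widely spread among control samples for nearly all of these genes. The SD over the 7 control arrays exceeded that over the 6 fructose arrays in 30 of the 32 genes and in all 16 sterol enzymes, where it did in 70.7% of all genes, and the median ratio of the SDs was 2.15 against 1.33 over all genes. Fasn had the largest ratio, 0.16 in control against 0.02 in fructose samples, and Lss and Dhcr7 had ratios of 4.36 and 4.19. The exceptions were Insig2, with 0.07 in control and 0.12 in fructose samples, and Stard4, with 0.14 and 0.18. The spread was described and not tested. Without control replicates 2 and 5, a setting chosen after the values were seen, the count was 21 of 32 against 62.0% of all genes. The median ratio was then 1.17 against 1.198, and the count among sterol enzymes was 11 of 16. Most of the excess over other genes thus lay with these 2 arrays. They had been seen to hold many of the highest and lowest values of these genes, so a fall without them was largely fixed by that choice. Exact repeats of a value also bear on the spread. In 9 of the 32 genes at least 2 fructose arrays had the same deposited value, against 19.8% of all genes, and in 2 of the 32 at least 2 control arrays did, against 15.7%. Among the 16 sterol enzymes, 6 (37.5%) had such repeats in fructose arrays and 0 in control arrays. The part of such repeats in the SDs was not tested.

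**Figure D4:**
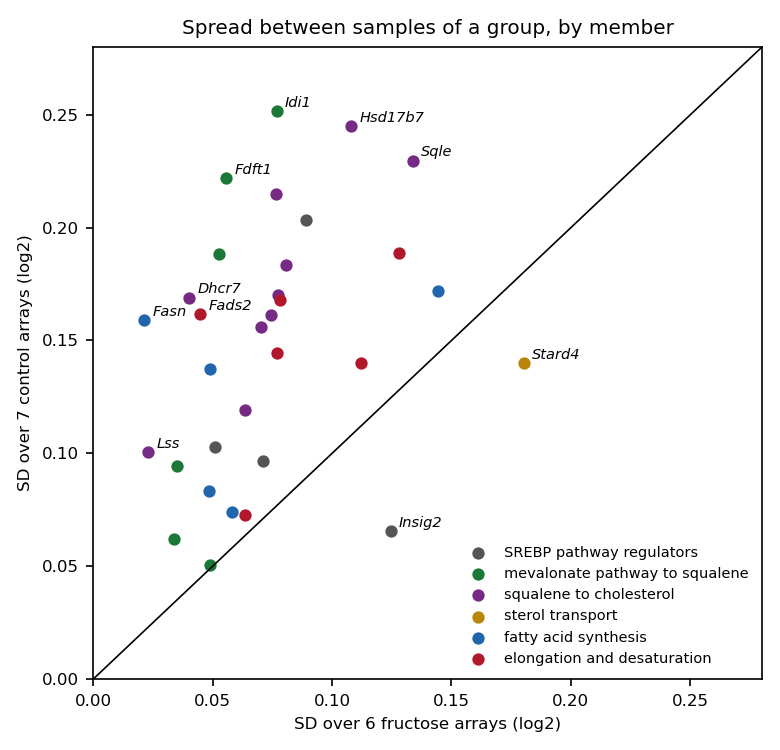
SD of each of the 32 genes over the 7 control arrays (vertical axis, log2) against its SD over the 6 fructose arrays (horizontal axis, log2), coloured by role, with a line where both are equal. All genes but Insig2 and Stard4 lie above the line.

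Sterol enzymes tended to be high or low on the same arrays. Among the 120 pairs of the 16 sterol enzymes, 29 (24.2%) had a Pearson r over 0.8 across the 13 arrays, with a median r of 0.72. Among the 55 pairs of the 11 fatty acid genes, 0 did, with a median r of 0.41, and over all pairs of genes on the array 0.545% did, with a median of 0.01. These are descriptions of correlations over the same 13 arrays. Without control replicates 2 and 5 the shares were 1.67% of sterol pairs, with a median r of 0.32, 1.82% of fatty acid pairs and 0.638% of all pairs.

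Each gene was also set against Fdft1, which took the place of Hmgcs1 after the values were seen, because Hmgcs1 had none. Of the other 31 genes, 11 had an r over 0.8 with Fdft1, where 0.820% of all genes did, and 20 had an unadjusted permutation p under 0.05, where 12.9% of all genes did. None of the 31 passed once p-values were adjusted over the 14505 genes set against Fdft1 (0.00% of them passed, the smallest adjusted p was 0.242, and 0 passed by Spearman's rho). With 100000 permutations the smallest possible p was 1e-05, so a gene alone at that floor could not have passed over so many genes. Fdps was the closest, with r = 0.96 and rho = 0.85 (2-sided permutation p = 4e-05 and 0.00051, adjusted p = 0.242). Dhcr7 followed with r = 0.90 and rho = 0.58 (permutation p = 0.00151 and 0.0421, adjusted p = 0.29), Sqle with r = 0.90 and rho = 0.84 (permutation p = 5e-05 and 0.00067, adjusted p = 0.242) and Sc5d with r = 0.90 and rho = 0.67 (permutation p = 0.00022 and 0.0146, adjusted p = 0.288). The lowest were Acacb, with r = -0.705 and rho = -0.46 (permutation p = 0.0241 and 0.118, adjusted p = 0.326), and Pmvk, with r = -0.17 and rho = 0.05 (permutation p = 0.526 and 0.88, adjusted p = 0.812).

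By role, an r over 0.8 with Fdft1 was found in 3 of 5 other genes from mevalonate to squalene, 7 of 10 from squalene to cholesterol and 1 of 5 of fatty acid synthesis (Fasn), and in none of the regulators, elongases or desaturases. Control replicates 5 and 2 were the arrays farthest from the median of Fdft1. Without both, 0 of 31 genes had an r over 0.8, where 0.145% of all genes did. There r was 0.77 for Fdps, 0.67 for Sqle, 0.61 for Sc5d and 0.28 for Dhcr7, so the relation of Dhcr7 rested on those arrays. Fasn went from 0.84 to 0.28, Acly from 0.59 to -0.75 and Srebf2 from 0.54 to 0.77. Without control replicate 5 alone the count was 4 of 31, against 0.214% of all genes. With each diet group centred on its own mean it was 11 of 31, against 1.09% of all genes.

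**Figure D5:**
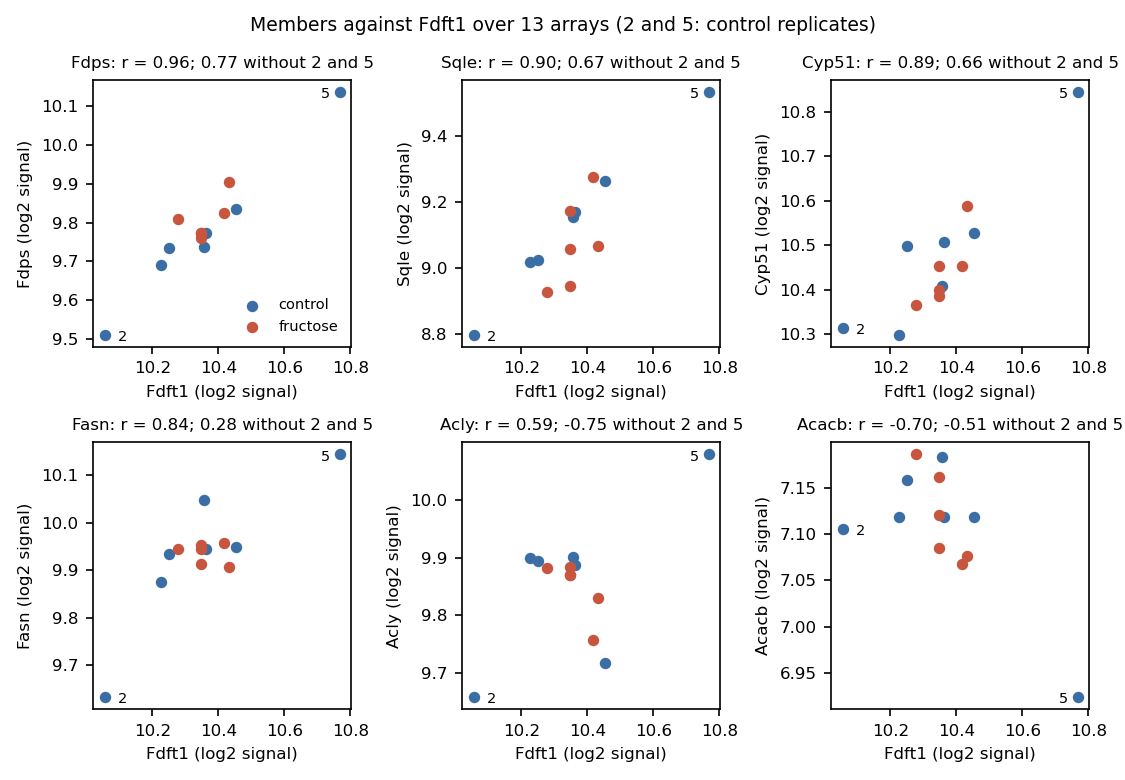
Log2 signal of 6 genes (vertical axes) against that of Fdft1 (horizontal axes) in the 7 control (blue) and 6 fructose (red) arrays, with r over all arrays and without control replicates 2 and 5 above each panel. The 2 marked arrays lie at the ends of the Fdft1 axis, and r falls from 0.96 to 0.77 for Fdps and from 0.84 to 0.28 for Fasn without them.

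Promoter sequences of the listed genes were also set beside the values. RefSeq promoters (assembly GRCr8, 250 bases before to 50 after each gene start) were at hand for 27 of the 34 listed genes, with the others being Pmvk, Fdft1, Sqle, Stard4, Acaca, Fasn and Elovl6. Both strands were searched for CCAAT, the box bound by NF-Y, a partner of SREBP on many of its targets, and for TCACNCCAC, a spelling of the sterol regulatory element. CCAAT was found in a promoter of 21 of the 27 genes (77.8%), against 39% of the 11968 genes with a probe set and a promoter. Counted by promoter, it was in 37.5% of the 33469 promoters of the table. It was in 12 of 14 sterol enzymes (85.7%) and 9 of 13 other listed genes (69.2%). TCACNCCAC was in 0 of the 27 and in 1.12% of all promoters, which says only that these letters are not in these windows. The 200 bases before the start are shown for the 5 genes with the highest r with Fdft1 among those with a promoter, 5' to 3' along the gene, with each CCAAT, or ATTGG for the other strand, in capitals. They are Fdps (chr2:176804817-176805016, minus strand), Dhcr7 (chr1:208444234-208444433, plus strand), Sc5d (chr8:51538278-51538477, minus strand), Nsdhl (chrX:155817160-155817359, plus strand) and Cyp51 (chr4:30991493-30991692, plus strand).
Fdps: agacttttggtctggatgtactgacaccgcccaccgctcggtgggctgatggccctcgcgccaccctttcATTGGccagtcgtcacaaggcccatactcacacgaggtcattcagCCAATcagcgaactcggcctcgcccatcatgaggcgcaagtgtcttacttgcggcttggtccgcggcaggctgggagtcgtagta
Dhcr7: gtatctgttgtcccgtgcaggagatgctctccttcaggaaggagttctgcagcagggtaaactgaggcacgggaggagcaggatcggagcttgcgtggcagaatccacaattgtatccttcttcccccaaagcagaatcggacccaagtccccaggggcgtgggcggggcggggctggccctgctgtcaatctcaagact
Sc5d: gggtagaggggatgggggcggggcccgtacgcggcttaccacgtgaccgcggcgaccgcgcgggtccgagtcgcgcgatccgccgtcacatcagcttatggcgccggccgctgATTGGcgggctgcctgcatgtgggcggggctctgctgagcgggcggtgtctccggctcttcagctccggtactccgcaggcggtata
Nsdhl: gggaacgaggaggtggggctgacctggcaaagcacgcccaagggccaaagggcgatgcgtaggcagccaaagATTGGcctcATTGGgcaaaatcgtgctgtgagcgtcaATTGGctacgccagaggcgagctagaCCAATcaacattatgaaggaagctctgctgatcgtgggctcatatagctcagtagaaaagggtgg
Cyp51: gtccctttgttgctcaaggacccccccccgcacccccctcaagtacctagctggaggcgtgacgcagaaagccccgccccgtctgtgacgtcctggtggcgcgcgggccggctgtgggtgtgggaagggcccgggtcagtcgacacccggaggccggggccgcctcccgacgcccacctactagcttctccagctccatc
The boxes of Fdps began 130 and 85 bases before the start, that of Sc5d 87 bases before it, and the 4 of Nsdhl 128, 119, 91 and 65 bases before it. Dhcr7 and Cyp51, with r = 0.90 and 0.89 with Fdft1, had none in the stretch shown. Without control replicates 2 and 5 those values were 0.28 and 0.66, and the part of the box in how the genes varied was not tested.

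Oligodendrocytes build myelin, and their markers varied between samples. The mean of 13 oligodendrocyte markers ran from 9.44 to 10.14 in control and from 9.53 to 10.16 in fructose arrays. None of the 32 genes followed it past the adjusted threshold over the 14493 genes set against it, and 0 of the 32 had an unadjusted permutation p under 0.05, where 5.26% of all genes did and 30 of them passed after adjustment. The highest correlations were those of Scd2 (r = 0.44, rho = 0.38), Acacb (r = 0.41, rho = 0.32), Elovl5 (r = 0.36, rho = 0.37) and Elovl6 (r = 0.30, rho = 0.17), with permutation p from 0.129 to 0.32 for r. The lowest were those of Dhcr7 (r = -0.499, rho = -0.48, permutation p = 0.0737 for r) and Acly (r = -0.36, rho = -0.34). Without the 2 arrays farthest from the median of the markers, fructose replicate 1 and control replicate 3, r was 0.39 for Scd2 and -0.49 for Dhcr7. For Acly it was -0.61, the lowest there. In that setting 1 of the 32 genes had an unadjusted permutation p under 0.05, against 7.36% of all genes. After adjustment 0 of the 32 passed, as did 0 of all 14493 genes.

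No diet difference passed the threshold among other genes of the pathway. Of 15 genes of cholesterol turnover, storage and export, all measured, 12 had a higher and 3 a lower mean in fructose samples, where 54.0% of all genes were higher. The median difference was 0.04 against 0.0055 over all genes. Of the 15, 0 passed the adjusted threshold in either direction and 1 had an unadjusted p under 0.05, against 2.23% of all probe sets. The split was 8 and 7 without control replicate 1, without control replicate 2 or without fructose replicate 4, and 3 and 12 without control replicates 1 and 2, so it rested on those arrays. The gene below 0.05 was Cyp27a1, a sterol hydroxylase, at 7.01, 7.23 and 7.44 (lowest, median and highest) in control and 7.18, 7.42 and 7.63 in fructose samples. Its difference was 0.21 ± 0.08 (SE), with 5 of 6 fructose arrays above the control mean, an unadjusted p of 0.0236 and an adjusted p of 0.9998 from limma, and the groups overlapped. The next by p were the endosomal cholesterol exporter Npc1 at 0.09, the efflux transporter Abcg1 at 0.07 and the sterol carrier Stard3 at -0.04. Leaving out 1 array took Npc1 to 0.05 (fructose replicate 1), Abcg1 to 0.04 or 0.11 (control replicates 1 and 8) and Stard3 to -0.02 or -0.06 (fructose replicates 4 and 7). Of 23 other SREBP processing and lipogenic genes 17 were measured, with 10 higher and 7 lower, against the same 54.0% of all genes higher. Their median difference was 0.0074, with 0 past the threshold by adjusted or unadjusted p. Without control replicates 1 and 2 this split was 6 higher and 11 lower, as it was after cyclic loess, and it was 7 and 10 after renewed quantile normalization and without control replicate 1, control replicate 2 or fructose replicate 1. The 4 with the smallest p were Hsd17b12, of fatty acid elongation (0.06), Thrsp, a lipogenic regulator (0.14), Aacs, the acetoacetyl-CoA synthetase (-0.07), and Dgat1, of triglyceride synthesis (0.05). Thrsp was at 0.06 without control replicate 1 and 0.0065 without control replicates 1 and 2, and Aacs at -0.02 without control replicate 5. Hsd17b12 and Dgat1 were at 0.01 and 0.02 without control replicates 1 and 2. All 6 fructose arrays of Hsd17b12 lay above its control mean and all 6 of Aacs below its own, within ranges that overlapped.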

How the data were processed

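RNA (100 ng) was amplified with Ambion and Affymetrix whole transcript kits, per the labels' protocols. The values analysed are the deposited log2 signals of 29214 probe sets, which the authors made with RMA in R 3.0.1, per the submitters' processing notes. RMA corrects background and equalises distributions before it summarises probes, so it draws samples together. The deposited values still differed in distribution between arrays, with quartile distances from 2.15 in control replicate 2 to 2.50 in control replicate 5. No detection calls or scanner files were used here, so the distance of a dim gene from background is unknown. Precision is limited by the number of arrays. Platform annotation gave 1 symbol for 15310 probe sets, several for 323 and none for 13581.

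The limma 3.58.1 package (lmFit, eBayes; R 4.3.3) was run on all 15633 probe sets with a gene, maternal fructose minus control, with no dim filter, Benjamini-Hochberg adjustment over all of them and a threshold of 0.05. Correlations used 100000 permutations of the array labels, 2-sided, adjusted over all genes set against the same measure. The scripts were tested on simulated data. Every member with a value is named, with the 4 genes of each pathway list with the smallest p and the 4 highest and 2 lowest correlations. Other settings were renewed quantile normalization, cyclic loess, a filter on the 30% dimmest probe sets, array weights, a replicate block, a second probe set, and arrays left out. The members and lists were chosen with earlier results of these data known.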

Additional observations from a re-analysis of the deposited data

Results flagged for a closer look

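In each group of 7 or 6 arrays the highest and lowest value of every gene was set against its neighbour, as a gap relative to the range of the group, for the genes named by rule. Of 80 such groups, 7 (8.75%) held an array standing apart, where chance gives about 1 in 20. Control replicate 5 accounted for 2, with 10.84 for Cyp51 (next 10.53) and 6.92 for Acacb (next 7.11), the second being lower than the others. Control replicate 2 accounted for Acaca, at 9.06 (next 9.201). Among fructose samples, replicate 4 was at 8.40 for Mvk (next 8.49), replicate 2 at 8.60 for Pmvk (next 8.52), replicate 8 at 8.83 for Lss (next 8.87) and replicate 3 at 10.07 for Me1 (next 9.80).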

How the results depend on the processing

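None of the 32 genes passed the adjusted threshold in any setting run, and the median difference ranged from -0.0186 to 0.0269. The sign of 9 genes (Srebf2, Insig2, Lss, Tm7sf2, Ebp, Stard4, Acaca, Elovl6 and Fads1) was the same in every setting, and 23 turned in at least 1. Leaving out 1 array gave 12 to 27 of 32 genes higher, 0 past the threshold and a median difference of -0.0153 to 0.0269. Without control replicates 1 and 2 the number higher was 9. The share of all genes higher is given only for the main setting. The labels do not say whether arrays of the same replicate number belong together. The correlation of deviations between arrays of the same number was -0.335 to 0.187 over 6 pairs, and 0 numbers matched their own best. So few pairs cannot decide whether a number marks a shared litter or batch. With the replicate block, which drops control replicate 5 because no fructose array has its number, 0 genes passed and 27 were higher. The number with r over 0.8 with Fdft1 was 0 without the 2 arrays farthest from its median, where 0.145% of all genes passed it. It was 7 after cyclic loess and 4 to 12 with 1 array left out. Among these last settings the share of all genes was computed only without control replicate 5. The SD was larger in control samples in 27 to 31 of 32 genes with 1 array left out, against 66.1% to 73.5% of all genes. It was so in 26 with either other normalization (quantile, then cyclic loess), against 66.3% and 65.5% of all genes. There the median ratio was 1.69 and 1.65, against 1.25 and 1.23 over all genes.

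Turned differences were, after renewed quantile normalization, Scap -0.006, Fdft1 -0.0125, Sc5d -0.0071, Fasn -0.0188 and Scd2 -0.0346, and after cyclic loess Scap -0.0086, Fdft1 -0.0121, Sc5d -0.0074, Fasn -0.0156 and Scd2 -0.0048. With array weights they were Mvd 0.0172, Idi1 0.0226 and Scd 0.0039. Without control replicates 1 and 2 they were Scap -0.0114, Fdps -0.0065, Fdft1 -0.0299, Nsdhl -0.011, Sc5d -0.0087, Fasn -0.0525, Elovl5 -0.0407, Fads2 -0.0215 and Scd2 -0.0067. With the replicate block they were Mvd 0.0214, Idi1 0.0468, Sqle 0.0025, Cyp51 0.0153, Msmo1 0.0119, Hsd17b7 0.0285, Dhcr7 0.0106, Acly 0.0231, Acacb -0.0177, Me1 0.0253 and Scd 0.0037. Without control replicates 2 and 5, chosen after seeing the data, they were Scap -0.0288, Mvd 0.0191, Idi1 0.0104, Acacb -0.0232, Fasn -0.0133, Scd 0.0023 and Scd2 -0.0048. With 1 array left out, the ranges of the genes that turned were Scap -0.0153 to 0.0352, Insig1 -0.013 to 0.0748, Mvk -0.0279 to 0.0009, Pmvk -0.0073 to 0.0274, Mvd -0.0286 to 0.0214, Idi1 -0.0732 to 0.0468, Fdps -0.01 to 0.0938, Fdft1 -0.0399 to 0.0786, Sqle -0.12 to 0.0025, Cyp51 -0.0756 to 0.0153, Msmo1 -0.0589 to 0.0119, Nsdhl -0.0043 to 0.1091, Hsd17b7 -0.1088 to 0.0285, Sc5d -0.014 to 0.0681, Dhcr7 -0.0842 to 0.0106, Acly -0.0467 to 0.0231, Acacb -0.0177 to 0.0253, Fasn -0.0457 to 0.0396, Me1 -0.0651 to 0.0253, Elovl5 -0.0037 to 0.0792 and Scd -0.0878 to 0.0037. The cause of these turns was not tested. The dim filter left 31 genes, without Acacb.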
